A study of Mus musculus with 147 samples.

Results

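The genes described here are those of oxidative phosphorylation, the last stage of respiration in mitochondria. They were taken by symbol from the 35438 genes of the files: names that begin with mt-, Nduf, Uqcr, Atp5 or Cox4 to Cox8, and the subunits Sdha to Sdhd, without the Ndufaf assembly factors, Ndufa4l2 and names that hold Gm or -ps. The rule gave 101 genes, 13 of them mitochondrially encoded (mt-) and 88 nuclear encoded. GENCODE M21 annotates 4 of the 88 (Ndufb4c, Ndufs6b, Ndufa11b and Cox6c2) as processed pseudogenes, which the rule keeps by name. They were measured in single cells sorted for yellow fluorescent protein (YFP) from the kidney cortex of adult C57BL/6 mice, 1 cell to a well of the Fluidigm C1 System, with full-length cDNA made from polyadenylated RNA by SMART-Seq v4. The comparison was between 51 WT renin cells (Ren1c+/+ Ren1c-YFP) and 96 Reninnull cells (Ren1c-/- Ren1c-YFP). In both genotypes a piece of the Ren1c 5′ regulatory region drives YFP, so the sort follows the activity of that sequence and not renin itself. Mice with the knockout allele also received saline injections in the days after birth, and the WT mice are not said to have had them.

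The labels name no mouse and no capture for a cell. With 1 sample a genotype, no p-value is given, and differences between genotypes cannot be told apart from those between captures or libraries. The Reninnull cells were sequenced as 2 libraries of 48 wells, YFP1 and YFP2, and the labels name no library for the WT cells. Levels are counts per 1000000 non-mt- counts (CPM), summed over the wells of a genotype unless a value is said to be of single wells, and ratios are log2 values of Reninnull over WT. Intervals of ratios cover counting error only.

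Oxidative phosphorylation is carried out by 5 complexes of the inner mitochondrial membrane. Complex I takes electrons from NADH and complex II from succinate, complex III passes them to cytochrome c, complex IV passes them to oxygen, and complex V, the ATP synthase, uses the proton gradient that results. Complexes I, III, IV and V are built from subunits of 2 genomes: a small set of core subunits is encoded and transcribed within the mitochondrion, and the rest come from nuclear genes, are translated in the cytosol and are imported. Complex II is wholly nuclear encoded. Renin cells are modified smooth muscle cells of the afferent arteriole that store and release renin in granules.

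The targeted gene was as labelled: Ren1 stood at 120438 CPM in WT renin cells, with a count in 51 of 51 wells, and at 0.152 CPM in Reninnull cells, with a count in 16 of 96 wells. Akr1b7, a renin cell marker that does not depend on renin, had a count in 51 of 51 and 94 of 96 wells, at 5679 and 2257 CPM. Of the 9 genes of the renin cell list, 8 had a mean of at least 10 CPM, with a median ratio of -0.96. At least 2-fold lower were 4, Ren1, Akr1b7 (-1.33), Pdgfrb (-2.75) and Notch3 (-1.25), beside 23.1% of all genes with that mean. The others were Cspg4 (-0.68), Gja5 (-0.02), Gja4 (0.08) and Rgs5 (0.19). The smooth muscle list summed to 16070 and 15542 CPM, and all 6 of its genes were within 2-fold. It was led by Acta2 in WT (5455 CPM) and by Tagln in Reninnull cells (5928 CPM).

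Markers of other cell types were not equally represented. The proximal tubule list, a cell type rich in mitochondria, summed to 302 CPM in WT and 1655 CPM in Reninnull cells. Lrp2, the endocytic receptor of this cell type, stood at 9.84 and 95.3 CPM, and 6 Reninnull wells and 0 WT wells had over 1% of their non-mt- counts in the list. The podocyte list summed to 124 and 717 CPM (189 in YFP1 and 1144 in YFP2), the endothelial list to 48 and 261 CPM (33.2 and 447) and the fibroblast list to 217 and 1300 CPM (502 and 1948). The libraries were thus apart, and the endothelial list was higher than in WT only in YFP2. Single wells weighed heavily in the endothelial and podocyte lists. For Emcn, 1 well held 69.6% of the Reninnull counts and 1 well 98.7% of the WT counts. The highest Reninnull well held 81.8% of the counts of Pecam1, 79.7% of Nphs1 and 91% of Wt1, but 20% of Synpo. The cardiac and striated muscle list was on the WT side, at 794 and 15.7 CPM, nearly all of it Myh6 (732 and 0.0253 CPM) and Myh7, while Actc1 (0 and 7.14 CPM), Ckm (0.342 and 6.61 CPM) and Tnnt2 (0.127 and 1.17 CPM) were on the other side and Tnni3 was at 0 in both genotypes. Macrophage markers were close to 0, at 1.24 and 4.89 CPM, with C1qb, C1qc and Adgre1 at 0 in both. The part of these lists in the values below was not tested, apart from the 6 Reninnull wells over 1% for the proximal tubule list, which were left out together.

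Depth per well also differed. Counts per well ran from 26401 to 17124854 with a median of 1525972 in WT, and from 3628 to 14505243 with a median of 4107950 in Reninnull cells. A set of 4 pairs of Reninnull wells was near-identical, with correlations of log2 CPM from 0.974 to 0.987, against 0.896 for the next pair. Of those pairs, 3 joined a YFP1 well to a YFP2 well. Counting each pair once left 92 Reninnull wells. Of the 80 nuclear genes with a mean of at least 10 CPM, 9 rather than 10 were then at least 2-fold higher (11.2%, beside 41.4% of all genes).

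Before levels of single mt- genes are read, the nuclear copies of the mitochondrial genome have to be considered, since a read cannot be told apart between an mt- gene and a copy of the same sequence. A stretch of chromosome 1 (GRCm38, GENCODE M21, all genes on the minus strand) holds copies of several mt- genes in a row. Gm10925 (chr1:24613974-24614651) matched the first 678 of the 681 bases of mt-Atp6 (chrM:7927-8607) without a mismatch, and Gm28437 (chr1:24613189-24613971) the first 783 of the 784 bases of mt-Co3 (chrM:8607-9390). The 2 genes and their copies differ only in the 3′ end of the annotated transcript, shown here from base 639 and base 744, with the bases that only the mt- gene has in capitals.
mt-Atp6: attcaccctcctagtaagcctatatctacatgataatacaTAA
Gm10925: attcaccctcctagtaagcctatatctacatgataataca
mt-Co3: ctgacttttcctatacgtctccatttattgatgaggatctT
Gm28437: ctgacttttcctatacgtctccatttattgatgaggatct

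Gm28438 (chr1:24612775-24613119) matched mt-Nd3 (chrM:9459-9806) over 345 bases with 1 mismatch, T3C, counted from the first base of mt-Nd3. The first 61 bases of each show it in capitals.
mt-Nd3: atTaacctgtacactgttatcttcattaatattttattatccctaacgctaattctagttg
Gm28438: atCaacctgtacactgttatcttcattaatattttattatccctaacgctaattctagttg

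Counts were divided between these pairs very unequally. The copy Gm10925 held 82.9% of the counts of its pair with mt-Atp6 in WT and 77.7% in Reninnull cells. The copy Gm28438 held 89.2% and 89.8% of its pair with mt-Nd3. By contrast, Gm28437 held 10.8% and 7.79% of its pair with mt-Co3, and Gm28661, which matched 681 of the 684 bases of mt-Co2, held 1.62% and 2.73%. Gm29216 covers the 3′ part of mt-Co1, from base 1054 to base 1545, and held 35.4% and 31% of that pair. With the copies added, mt-Atp6 stood at 21190 and 11906 CPM rather than 3626 and 2658, and mt-Nd3 at 1088 and 674 CPM rather than 118 and 68.8. The levels of mt-Atp6, mt-Nd3, mt-Co1 and mt-Co3 are uncertain for this reason and are given below as deposited. Which genome the reads of a copy came from was not tested.

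**Figure D1:**
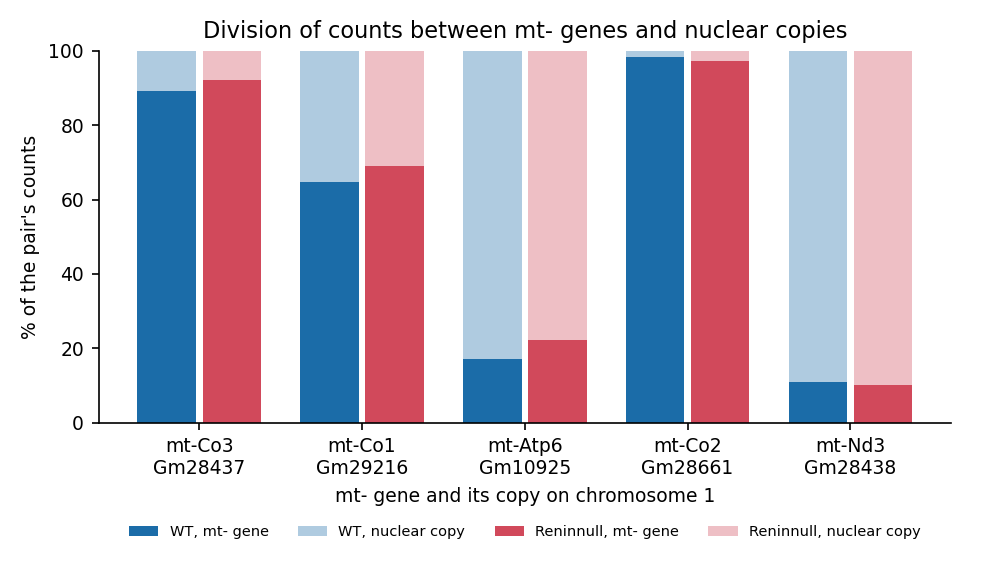
Division of summed counts between 5 mt- genes and their copies on chromosome 1, in % of each pair's counts, for WT (blue) and Reninnull cells (red). The copy (pale) held most counts of mt-Atp6 (82.9% and 77.7%) and mt-Nd3 (89.2% and 89.8%), and few of mt-Co2 (1.62% and 2.73%).

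Neighbouring mt- genes also share bases of their own. mt-Atp8 ends within mt-Atp6, and mt-Nd4l within mt-Nd4, and reads in the shared bases, in capitals here with 12 bases on each side, can belong to either gene.
mt-Atp8/mt-Atp6 (chrM:7915-7981): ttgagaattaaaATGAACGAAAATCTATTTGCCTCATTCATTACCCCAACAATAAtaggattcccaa
mt-Nd4l/mt-Nd4 (chrM:10155-10185): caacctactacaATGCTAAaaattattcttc

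The mt- share of a well, the percentage of all its counts in the 13 mt- genes, was very uneven in both genotypes. In WT renin cells the lowest well had 1.62%, the median well 60.4% and the highest 79.8%. In Reninnull cells the lowest well had 0.832%, the median well 12.4% and the highest 81.5%. The ranges overlapped almost wholly. The intervals that follow are over the wells of 1 sample a genotype and do not cover the spread between animals. They count both wells of each near-identical pair. Of the WT wells, 14 of 51 were under 10% (27.5%, Clopper-Pearson 15.9 to 41.7) and 30 were at 50% or more (58.8%, 44.2 to 72.4). Of the Reninnull wells, 43 of 96 were under 10% (44.8%, 34.6 to 55.3) and 23 were at 50% or more (24%, 15.8 to 33.7). YFP1 and YFP2 were alike, with medians of 12.9% and 12.4%. Of summed counts, the mt- genes held 20.3% in WT and 10.9% in Reninnull cells, a log2 ratio to non-mt- counts of -1.06, or 2.08-fold lower in Reninnull cells. YFP1 gave -0.87 and YFP2 -1.23.

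The mt- share moved with depth in both genotypes, and the medians of WT and Reninnull wells lay close together in some bands of depth and apart in others. Among wells with 5000000 counts or more, the 14 WT wells had a median of 6.79% (1.62 to 16.5) and the 43 Reninnull wells a median of 4.39% (0.832 to 25.6). No well of this depth reached 50% in either genotype. Between 500000 and 2000000 counts, the medians were 66.8% over 22 WT wells and 67.6% over 17 Reninnull wells. Below 500000 counts they were 51.4% over 9 WT wells and 36.1% over 23 Reninnull wells. The widest gap was in the band from 2000000 to 5000000 counts, with 68.3% over 6 WT wells (31.5 to 78.6) against 12% over 13 Reninnull wells (3.86 to 73.3). Over the deepest wells alone, the mt- genes held 6.26% of summed counts in WT and 6.22% in Reninnull cells, a log2 ratio of -0.01 in place of -1.06. The deepest wells were 14 of 51 in WT and 43 of 96 in Reninnull cells. Depth per well and genotype are thus not separate in the sums over all wells, and the share of the difference that goes with depth was not tested further.

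**Figure D2:**
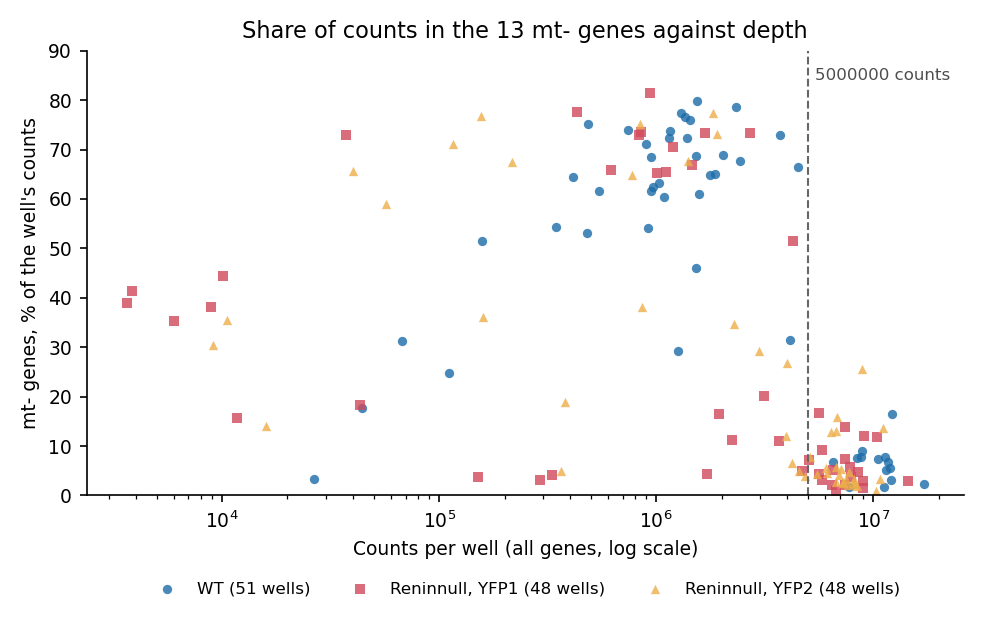
Share of each well's counts in the 13 mt- genes (%, vertical) against the well's total counts (log axis), for WT (circles), YFP1 (squares) and YFP2 wells (triangles). To the right of the dashed line, at 5000000 counts, all 57 wells lie at 25.6% or less; wells at 50% or more lie to its left in WT, YFP1 and YFP2.

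Among the 13 mt- genes, complex IV and complex III led. Per kb of transcript, the highest level was that of mt-Co3, a core subunit of complex IV, with 89857 CPM per kb in WT and 44491 in Reninnull cells. It was followed by mt-Cytb, the only mitochondrially encoded subunit of complex III (52176 and 22032), and by mt-Co2, which binds cytochrome c (47157 and 21734). mt-Co1, which carries the site of oxygen reduction, had 24334 and 14408 CPM per kb. Of the complex I core, mt-Nd1 had 18789 and 8175 CPM per kb, mt-Nd4 11226 and 5107, and mt-Nd6, the gene transcribed from the other strand, 2824 and 1331. For complex V, mt-Atp8 had 5964 and 2399 CPM per kb. The order of the first 3 genes, as deposited, was the same in both genotypes, with mt-Cytb and mt-Co2 close together in Reninnull cells. In YFP2 alone mt-Co2 was slightly above mt-Cytb.

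All 13 mt- genes were lower in Reninnull cells over all wells, and 9 of them at least 2-fold. The background for that count, the share of the 7913 non-mt- genes with a mean of at least 10 CPM that were at least 2-fold lower, was 23.1%. The ratios ran from -1.42 for mt-Nd5, a proton-pumping subunit of complex I, to -0.45 for mt-Atp6. In single wells, mt-Nd5 ranged from 25.7 to 287600 CPM with a median of 22519 in WT and from 2.99 to 292633 CPM with a median of 3975 in Reninnull cells. mt-Cytb ranged from 3484 to 1034815 CPM (median 294704) in WT and from 1230 to 1223864 CPM (median 28889) in Reninnull cells. mt-Co3 ranged from 6701 to 998143 CPM (median 330597) and from 3218 to 979629 CPM (median 39325). For each of these genes the wells of the 2 genotypes overlapped over nearly the whole range, and the medians were apart. Each of the 13 was lower than in WT in both libraries, with 6 at least 2-fold lower in YFP1 and 10 in YFP2, beside 31.4% and 26.3% of the 7913 genes.

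In sums over the wells with 5000000 counts or more, the ratios of the same genes lay close to 0 on both sides. Of the 13, 6 were above 0 and 6 below, with 0.36 for mt-Co1, 0.25 for mt-Nd5, 0.17 for mt-Atp6, 0.09 for mt-Nd1, 0.07 for mt-Co2, 0.03 for mt-Nd2, 0.00 for mt-Nd6, -0.22 for mt-Cytb and -0.33 for mt-Nd4l. In those wells mt-Cytb had a median of 14507 CPM (3484 to 35150) in WT and 8238 CPM (1230 to 54059) in Reninnull cells, so that sums and medians were not the same. With its copy added, mt-Atp6 had a ratio of -0.83 over all wells in place of -0.45, mt-Nd3 -0.69 in place of -0.77, mt-Co1 -0.85 in place of -0.76 and mt-Co3 -1.06 in place of -1.01.

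**Figure D3:**
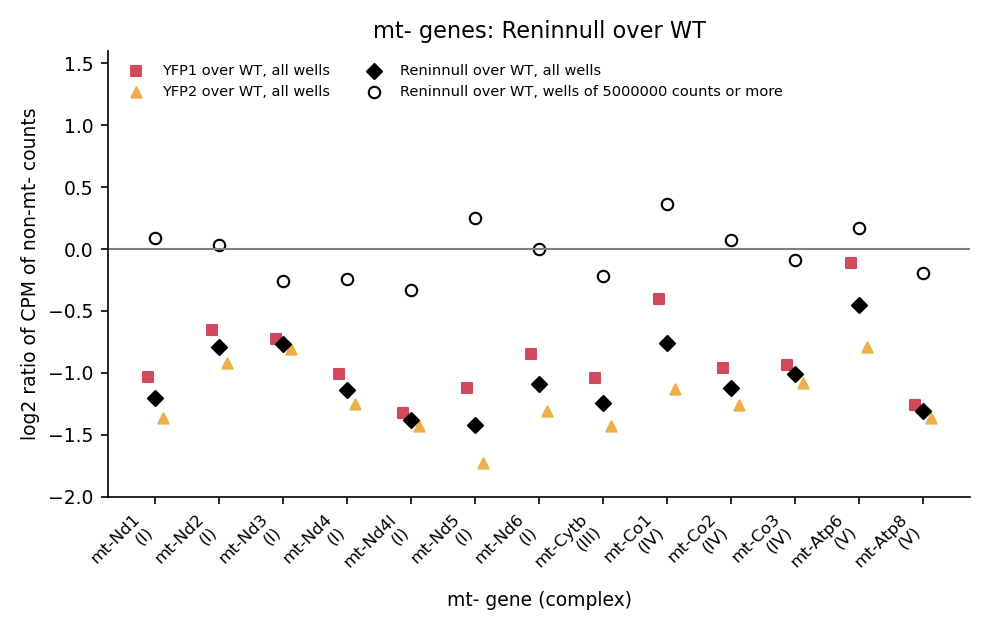
log2 ratio of CPM of non-mt- counts, Reninnull over WT, for the 13 mt- genes grouped by complex. Diamonds (all wells) lie between -1.42 (mt-Nd5) and -0.45 (mt-Atp6), squares and triangles give YFP1 and YFP2 over WT, and open circles (wells of 5000000 counts or more) lie between -0.33 and 0.36.

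The share of each gene in the mt- counts moved by less than 4 percentage points between the sums of the genotypes. mt-Co3 made up 27.7% of them in WT and 28.6% in Reninnull cells, mt-Cytb 23.5% and 20.6%, mt-Co1 14.8% and 18.2% (20.5% in YFP1 and 15.9% in YFP2), mt-Co2 12.7% and 12.2%, mt-Nd1 7.07% and 6.41%, mt-Nd4 6.08% and 5.76%, and mt-Nd5 3.87% and 3%. The share of mt-Atp6, without its copy, was 1.43% and 2.18%, the widest move of the 13 relative to its own level. Over single wells the interquartile range ran from 23.1% to 34.5% for mt-Co3 in WT and from 23.8% to 37.3% in Reninnull cells, and for mt-Co1 from 11.4% to 17% and from 12% to 21.1%. These ranges overlapped for both genes.

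The nuclear genes, in contrast to the mt- genes, had nearly equal sums in the 2 genotypes. The 88 genes held 1.66% of non-mt- counts in WT and 1.6% in Reninnull cells. Of the 88, 80 had a mean of at least 10 CPM and entered the ratios. Their median ratio was -0.01, with 40 genes above 0 and 40 below, while the median over all 7913 genes that passed the same limit was 0.51. At least 2-fold higher in Reninnull cells were 10 of the 80 (12.5%), beside 41.2% of all genes, and at least 2-fold lower were 5 (6.25%), beside 23.1%. The other 65 were within 2-fold. The median was -0.17 in YFP1 and 0.06 in YFP2, and 60 of the 80 genes had the same sign in both. Of all 80, 4 were at least 2-fold higher in both libraries, beside 26.5% of all genes, and 3 at least 2-fold lower in both, beside 17.4%. With TMM factors, which took the median of all genes from 0.51 to -0.13, the median of the nuclear genes was -0.56, and 2 of the 10 higher genes (Ndufs3 and Ndufs8) were still at least 2-fold higher. The other 8 had ratios from 0.48 to 1.00 there, the last just under 2-fold, and the lower genes rose from 5 to 22 of 80 (27.5%, beside 33.2% of all genes), all 5 among them.

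**Figure D4:**
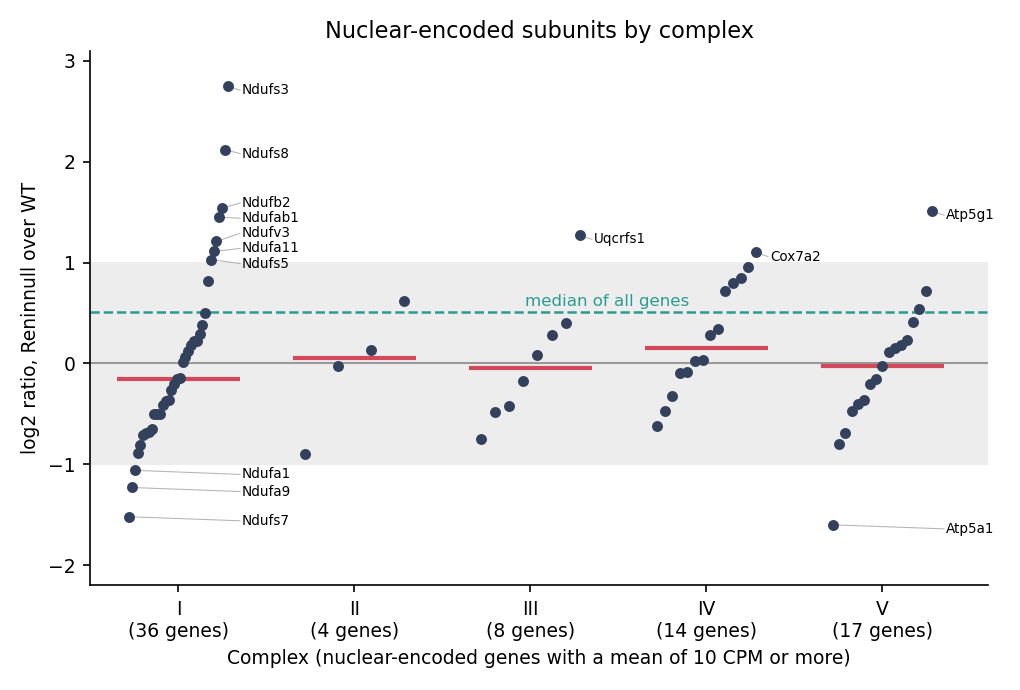
log2 ratio, Reninnull over WT, of 79 of the 80 nuclear genes with a mean of 10 CPM or more, 1 point a gene, by complex. Red bars are the medians over all 80 (-0.15, 0.05, -0.05, 0.16 and -0.03 for complexes I to V), the dashed line is the median of all genes (0.51), and the grey band is within 2-fold, outside which 14 genes are named.

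Complex I has the largest number of subunits, and 37 of its 39 nuclear genes passed the limit. Their median ratio was -0.15, with 7 at least 2-fold higher (18.9%, beside 41.2% of all genes) and 4 at least 2-fold lower (10.8%, beside 23.1%). Without Ndufb4c, the only pseudogene that passed, the median was -0.15 over 36 genes. The highest mean CPM were those of Ndufa11 and Ndufb9, both accessory subunits of the membrane arm. Ndufa11 stood at 176 and 380 CPM (ratio 1.11, 0.60 in YFP1 and 1.42 in YFP2). Its WT wells ran from 0 to 954 CPM with a median of 3.13, and its Reninnull wells from 0 to 1800 CPM with a median of 95.3. Ndufb9 stood at 244 and 283 CPM (0.22), with -0.56 in YFP1 and 0.64 in YFP2.

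The core subunits of the peripheral arm of complex I, which carry the flavin and the iron-sulfur clusters, went in different directions. Ndufs3 had the largest ratio of the nuclear genes over all wells, 2.75 (2.73 in YFP1 and 2.76 in YFP2), at 16.8 CPM in WT and 113 CPM in Reninnull cells. It had a count in 14 of 51 and 41 of 96 wells, and a median of 0 CPM in both genotypes, with a highest well of 99.9 CPM in WT and 4878 CPM in Reninnull cells. The higher sum was thus that of a minority of wells, and the highest well alone held 35.8% of the Reninnull counts. Within the libraries, 1 well held 68.9% of the YFP1 counts and 1 well 64.3% of the YFP2 counts. Ndufs8, which holds iron-sulfur clusters, stood at 34.1 and 148 CPM (2.12), with counts in 20 of 51 and 63 of 96 wells. Ndufs7 stood at 335 and 117 CPM (-1.52), with wells from 0 to 3338 and from 0 to 1796 CPM and medians of 10.6 and 0.371 CPM. Ndufs1, Ndufv1 and Ndufv2 had ratios of -0.65, -0.50 and -0.89.

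The accessory subunits of complex I were as mixed. Higher in Reninnull cells were Ndufb2 (1.54), Ndufab1, which is also the mitochondrial acyl carrier protein (1.45), Ndufv3 (1.21) and Ndufs5 (1.03), and lower were Ndufa9 (-1.23) and Ndufa1 (-1.06). All 4 of the higher genes were under 2-fold in YFP1 and over it in YFP2, with 0.43 and 2.06 for Ndufb2, 0.95 and 1.76 for Ndufab1, 0.82 and 1.46 for Ndufv3 and 0.17 and 1.48 for Ndufs5. Ndufa9 had -0.94 and -1.53, and Ndufa1 -1.51 and -0.78. Ndufs4, which had a ratio of 0.01, had -1.72 in YFP1 and 0.66 in YFP2. Ndufs4 and Ndufb5 were singled out after their values were seen, because they had counts in 48 and 49 of the 51 WT wells and in 43 and 64 of the 96 Reninnull wells. In WT wells under 5000000 counts, Ndufs4 had a median of 30 counts (83.1 CPM), and in deeper WT wells 11.5 counts (1.12 CPM). Ndufs4 had a count in 36 of 37 of the shallower and 12 of 14 of the deeper WT wells, so low counts were found at both depths and the CPM were apart. In Reninnull cells it had a count in 17 of 53 shallower and 26 of 43 deeper wells. For Ndufb5 the WT medians were 18 counts (49.6 CPM) in shallower and 80 counts (9.76 CPM) in deeper wells, and the Reninnull medians 1 and 3 counts.

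Complex II, which is also the succinate dehydrogenase of the TCA cycle, is made of 4 nuclear subunits, all of which passed the limit and were within 2-fold. Sdha, the flavoprotein, stood at 412 and 221 CPM (-0.90, with -1.39 in YFP1 and -0.60 in YFP2). Its wells ran from 0 to 1790 CPM (median 10.6) in WT and from 0 to 5909 CPM (median 1.12) in Reninnull cells, where the highest well held 42.9% of the counts. Without the highest well of each genotype its ratio was -1.28, and as a mean over wells it was 0.44. Sdhb, the iron-sulfur subunit, stood at 141 and 217 CPM (0.62, with 1.07 and 0.12), and without the highest wells its ratio was 1.15. The membrane anchors Sdhc and Sdhd had ratios near 0 over all wells (-0.03 and 0.13), from opposite values in the libraries, -1.41 and -0.92 in YFP1 and 0.56 and 0.64 in YFP2. In WT, 1 well held 57.2% of the Sdhc counts and 58.6% of the Sdhd counts.

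All 8 nuclear genes of complex III passed the limit, with a median ratio of -0.05. Uqcrh, the hinge protein, stood at 292 and 384 CPM (0.40), and Uqcr11 at 272 and 331 CPM (0.28). Uqcrh had wells from 0 to 1512 CPM with a median of 13.1 in WT and from 0 to 2190 CPM with a median of 131 in Reninnull cells. Uqcrfs1, the Rieske iron-sulfur protein, was the only one at least 2-fold higher, 1.27, at low levels of 18.7 and 45.3 CPM and with a count in 13 of 51 and 48 of 96 wells. The core proteins Uqcrc1 and Uqcrc2 had ratios of -0.75 and -0.48. In WT, 59.2% of the Uqcrc1 counts came from 1 well, and without the highest well of each genotype its ratio was 0.09 (0.58 as a mean over wells). That of Uqcrfs1 was then 2.21.

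Of the 20 nuclear genes of complex IV, 14 passed the limit, and their median ratio was 0.16 (0.09 in YFP1 and 0.23 in YFP2). Per kb, Cox6a1 (1010 in WT and 1754 in Reninnull cells) and Cox4i1 (1082 and 865) led the nuclear genes of the complex. Cox6a1 stood at 577 and 1002 CPM (0.80, with 0.24 in YFP1 and 1.13 in YFP2). Its wells ran from 0 to 2491 CPM with a median of 20.8 in WT, and from 0 to 6234 CPM with a median of 332 in Reninnull cells. Cox4i1 stood at 806 and 644 CPM (-0.32), with well medians of 46 and 294 CPM, so that the sum was higher in WT and the median higher in Reninnull cells. As a mean over wells its ratio was -1.46, with a highest WT well of 28271 CPM. Among wells with 5000000 counts or more, the medians of Cox4i1 were 574 and 508 CPM. Cox7a2 was the only gene of the complex at least 2-fold higher, 149 and 319 CPM (1.10, with 1.30 in YFP1 and 0.91 in YFP2). Ndufa4, named for complex I but a subunit of complex IV, stood at 132 and 238 CPM (0.85).

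Several complex IV subunits exist in a general form and in a form of particular tissues, and renin cells and Reninnull cells both used the general forms. Cox6a2 and Cox8b, the forms of heart and skeletal muscle, had no count in any of the 147 wells. With both genotypes together, this allows a share of wells with a count of up to about 2.04% (not of cells that express the gene). The level allowed is up to about 0.019 CPM in WT and 0.00844 CPM in Reninnull cells. Cox7a1, the muscle form of Cox7a2, was at 0 in WT and had a count in 2 of 96 Reninnull wells, at 0.0703 CPM. Cox6b2, a testis form, had a count in 5 of 51 and 15 of 96 wells, at 16.3 and 31.8 CPM per kb beside 285 and 346 for Cox6b1. Cox4i2 was the exception. This form, known from lung and from pericytes and responsive to low oxygen, stood at 128 CPM in WT and 83.8 CPM in Reninnull cells (-0.62). It had the smallest ratio of complex IV over all wells, with -0.04 in YFP1 and -1.35 in YFP2, and 0.36 as a mean over wells. It had a count in 36 of 51 and 49 of 96 wells, and its wells ran from 0 to 1288 CPM (median 3.35) and from 0 to 3078 CPM (median 0.111). The highest well held 35.3% of the WT counts, 46.1% of the Reninnull counts and 69.1% of the YFP1 counts. In wells of 5000000 counts or more the ratio of Cox4i2 was -1.18, with medians of 20.3 and 0.171 CPM. It was at 10 CPM or more in 9 of 14 WT and 6 of 43 Reninnull wells of that depth. When wells were thinned to 20000 non-mt- counts, which left out 0 WT and 11 Reninnull wells, Cox4i2 had a count in 10 of 51 wells (19.6%) and 9 of 85 wells (10.6%), and Cox4i1 in 30 (58.8%) and 63 (74.1%). For scale, the proximal tubule gene Lrp2 had a count in 3 of 51 (5.88%) and 20 of 85 (23.5%) of the thinned wells, the collecting duct gene Aqp2 in 0 and 5 (5.88%), and the macrophage gene C1qa in 0 and 0. The share of Cox4i2 was above all of these in WT and between those of Aqp2 and Lrp2 in Reninnull cells.

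All 17 nuclear genes of complex V passed the limit, with a median ratio of -0.03. The catalytic head is made of Atp5a1 and Atp5b, the alpha and beta subunits. Atp5b, with the highest mean CPM of the complex, stood at 999 and 755 CPM (-0.40), with wells from 0 to 5529 CPM (median 35.9) in WT and from 0 to 5445 CPM (median 77.2) in Reninnull cells. Atp5a1 stood at 854 and 281 CPM (-1.60, with counting limits of -1.61 and -1.59). The library YFP1 gave -1.27 and YFP2 -1.95. Its wells ran from 0 to 3369 CPM (median 33.3) in WT and from 0 to 3382 CPM (median 16.8) in Reninnull cells, so the highest wells were alike and the sums were not. Atp5c1, the gamma subunit of the central stalk, stood at 574 and 329 CPM (-0.80), and Atp5l of the membrane part at 725 and 565 CPM (-0.36). As a mean over wells, where each well counts the same, the ratio of Atp5b was 0.90 and that of Atp5l 1.52, and Atp5a1 had -0.74.

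The c subunit, which forms the rotor ring, is encoded by 3 genes with the same mature protein. Atp5g1 stood at 146 and 416 CPM (1.51, with 1.52 in YFP1 and 1.49 in YFP2), Atp5g2 at 79.2 and 87.9 CPM (0.15) and Atp5g3 at 184 and 302 CPM (0.72, with 1.28 and 0.00). Atp5g1 had a count in 20 of 51 WT wells and 63 of 96 Reninnull wells, and in thinned wells in 10 of 51 (19.6%) and 36 of 85 (42.4%). In WT, 1 well held 53.8% of its counts, and without the highest wells the ratio was 2.38. The well range was from 0 to 1129 CPM (median 0) in WT and from 0 to 3546 CPM (median 2.96) in Reninnull cells. Per kb, Atp5g3 had the highest level of the 3 in both genotypes (256 and 421 CPM per kb), and Atp5g1 had 54.7 and 155. That order rests on the lengths used, medians over annotated transcripts. They were 2675.5 bases for Atp5g1, 683 for Atp5g2 and 718.5 for Atp5g3, and which transcripts were present was not tested. Not scaled by length, Atp5g1 was the highest of the 3 in Reninnull cells.

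Single wells gave a different view from the sums. Summed over the 88 nuclear genes, wells ran from 247 to 59859 CPM with a median of 9304 in WT, and from 207 to 78961 CPM with a median of 11745 in Reninnull cells (10596 in YFP1 and 14954 in YFP2). Among wells with 5000000 counts or more, the medians were 15762 CPM (9304 to 32072) over 14 WT wells and 12752 CPM (5622 to 54777) over 43 Reninnull wells. Between 500000 and 2000000 counts they were 4551 CPM (315 to 59859) and 1180 CPM (407 to 78961). Below 500000 counts they were 2456 CPM (247 to 4467) and 10682 CPM (658 to 58248), and between 2000000 and 5000000 counts 10602 CPM (5868 to 21949) and 15360 CPM (207 to 37236). The median well's nuclear sum was thus higher in Reninnull cells over all wells and in 2 of the 4 bands of depth, and lower in the other 2, and the wells overlapped in each.

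In the deep wells, most of the nuclear genes reached 10 CPM in a smaller share of the Reninnull wells than of the WT wells. At 10 CPM or more, a WT well of 5000000 counts or more held a median of 51 of the 80 nuclear genes (35 to 80) and a Reninnull well a median of 42 (14 to 79). With these wells thinned to 4000000 non-mt- counts, the medians were 50.5 and 43. Over all 7913 genes the medians went the other way, 1658 genes in WT and 1780 in Reninnull wells. The share of deep wells with 10 CPM or more was lower in Reninnull cells for 62 of the 80 nuclear genes (77.5%) and for 54.3% of all genes. Sdha was at 10 CPM or more in 8 of 14 deep WT wells and 19 of 43 deep Reninnull wells, with medians of 250 and 1.5 CPM. Atp5a1 was at 10 CPM or more in 12 of 14 and 26 of 43, with medians of 587 and 30.5 CPM, and Ndufs7 in 9 of 14 and 15 of 43, with medians of 213 and 0.899 CPM. The other way went Ndufa11, in 8 of 14 and 34 of 43, Ndufs8, in 7 of 14 and 24 of 43, and Atp5g1, in 8 of 14 and 26 of 43. By complex, the median number of genes at 10 CPM or more was 19 and 18 of 37 for complex I, 2 and 1 of 4 for complex II, 6 and 5 of 8 for complex III, 11 and 9 of 14 for complex IV, and 13.5 and 12 of 17 for complex V.

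Set against each other by complex, the mt- genes had more counts, not scaled by length, than the nuclear genes in complexes I, III and IV. In complex I the summed mt- level was 9.46 times the nuclear one in WT and 4.35 times in Reninnull cells. In complex III, with 1 mt- gene, the ratio of sums was 33.7 and 14.8, and in complex IV 41.7 and 18.3. In complex V it was 0.893 and 0.68 without the counts that the copy of mt-Atp6 held, and 4.13 and 2.68 with them, so that the order of mt- and nuclear sums there turned on the copy. The mt- sums had log2 ratios of -1.18, -1.24, -0.96 and -0.62 for complexes I, III, IV and V, and the nuclear sums -0.06, -0.05, 0.23 and -0.23. Complex II, which has no mt- gene, had -0.20. Per kb, the median mt- gene of complex IV was 180 times the median nuclear gene in WT and 63.5 times in Reninnull cells. That of complex III was 105 and 49.7 times, that of complex I 20.2 and 12.9 times. For complex V it was 17.6 and 11.1 times without the copy, so per gene and kb the mt- genes led there too.

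In single wells these ratios spread over orders of magnitude. For complex IV the ratio of mt- to nuclear level had a median of 878 (2.99 to 52233) in WT wells and 21 (1.32 to 75082) in Reninnull wells. Over wells with 5000000 counts or more, the medians were 14.4 and 11.3 (14.7 in YFP1 and 9.33 in YFP2). For complex I they were 1.73 and 2.12 (2.73 in YFP1 and 1.5 in YFP2), for complex III 9.04 and 7.56, and for complex V 0.25 and 0.206 (1.09 and 0.959 with the copy of mt-Atp6). The genotypes were thus farther apart over all wells than in the deep ones, where WT lay between the 2 Reninnull libraries for complexes I and IV.

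Across wells, the mt- genes varied together and the nuclear genes much less so. Over the 78 pairs of mt- genes the median Spearman correlation was 0.82 (0.59 to 0.96) over 51 WT wells and 0.85 (0.55 to 0.97) over 96 Reninnull wells. Over the 3160 pairs of nuclear genes it was 0.34 and 0.25. Pairs share a well's depth and its non-mt- total, and the values are descriptions. The mt- share and the nuclear sum had a Spearman correlation of -0.31 in WT (Pearson -0.16) and -0.32 in Reninnull wells (Pearson -0.24), with -0.48 in YFP1 and -0.12 in YFP2. Among wells with 5000000 counts or more the sign was the other one, 0.35 over 14 WT wells and 0.28 over 43 Reninnull wells (0.42 in YFP1 and 0.28 in YFP2). The mt- share had a Spearman correlation with the log of total counts of -0.39 in WT and -0.67 in Reninnull wells, and with Ren1 of -0.16 in WT. The nuclear sum and the proximal tubule list had 0.04 in WT (Pearson 0.09) and 0.29 in Reninnull wells (Pearson 0.57), where the list was higher.

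**Figure D5:**
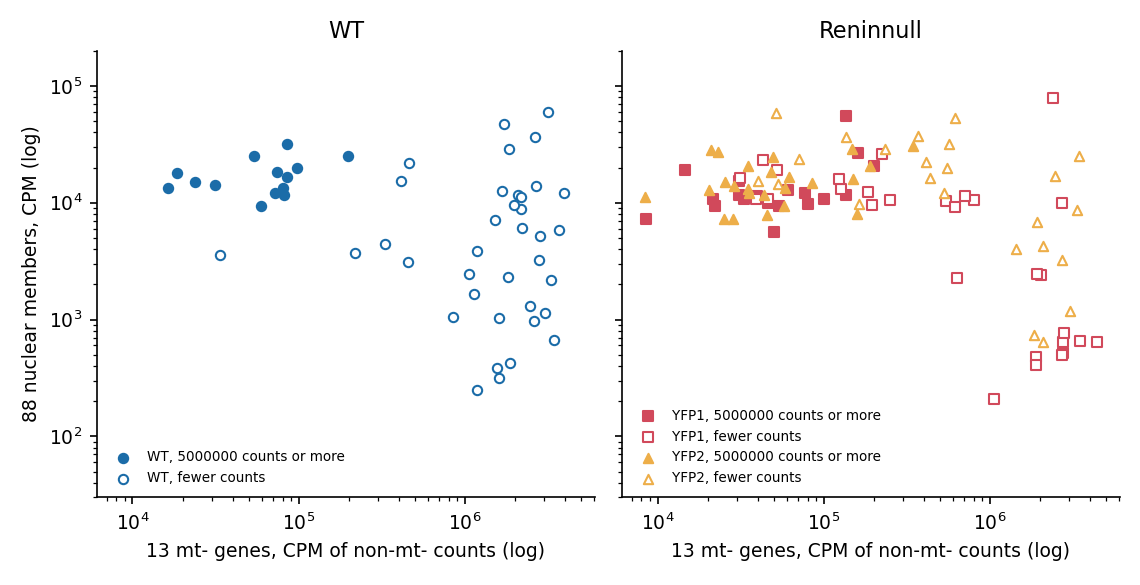
Summed CPM of the 88 nuclear genes (vertical, log axis) against summed CPM of the 13 mt- genes (horizontal, log axis), both of non-mt- counts, 1 point a well, for WT (left) and Reninnull cells (right). Filled points, wells of 5000000 counts or more, sit at 9304 to 32072 CPM of nuclear genes in WT and 5622 to 54777 in Reninnull cells; the lowest nuclear sums (247 and 207 CPM) are open points.

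Genes that build, feed or regulate the complexes were described by lists, each beside the median of 0.51 and the shares of 41.2% and 23.1% over all genes. Assembly factors had a median ratio of 0.02 over the 36 of 50 that passed, with 7 at least 2-fold higher and 11 lower. Their highest mean CPM were those of Higd1a, a factor of complexes III and IV (223 and 405 CPM, 0.86), and Cox17, a copper chaperone (137 and 118 CPM, -0.22). Sdhaf4, an assembly factor of complex II, had 0.577 and 28.8 CPM (5.64), with a count in 4 of 51 and 36 of 96 wells. Cox18, which helps insert mt-Co2 into the membrane, had 46 CPM in WT, 76.5% of it in 1 well, and 1 count in all Reninnull wells.

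Genes for the upkeep and expression of mitochondrial DNA had a median of 0.97 over 18 genes, with 8 higher and 3 lower. The medians were 0.47 in YFP1 and 0.51 in YFP2. Tfam, the factor that packages and transcribes mitochondrial DNA, had 192 and 34.4 CPM (-2.48), but 1 well held 79.2% of the WT counts and 1 well 95.9% of the Reninnull counts. Hsd17b10, a subunit of mitochondrial RNase P, had 136 and 213 CPM (0.64). Mterf1a, which binds a terminator site in mitochondrial DNA, had 1 count in WT and 28.4 CPM in Reninnull cells, in 21 of 96 wells and with 54.5% of the counts in 1 of them. Mitochondrial ribosomal proteins had a median of 0.79 over 73 of 78 genes, with 32 higher and 13 lower. Mrpl15 had 51.6 and 348 CPM (2.75, with 83.9% of the WT counts in 1 well), Mrpl51 192 and 235 CPM (0.29), Mrps10 1.25 and 58.9 CPM (5.56, with 92.1% of the Reninnull counts in 1 well) and Mrps23 77 and 3.24 CPM (-4.57, with 88.4% of the WT counts in 1 well).

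Of the regulators of mitochondrial biogenesis, 7 passed, 3 higher and 3 lower. Nrf1, an activator of nuclear genes of respiration, had 0.868 and 116 CPM (7.07), with a count in 12 of 51 and 54 of 96 wells. Yy1 had 14.7 and 169 CPM (3.52) and Nrip1, a corepressor, 42.5 and 293 CPM (2.78, with -0.34 in YFP2 and 72.7% of the Reninnull counts in 1 well). Ppargc1a, the coactivator PGC-1alpha, had 156 and 8.66 CPM (-4.17), with 96.6% of the WT counts in 1 well. The sum of Ppargc1a in WT, like that of Tfam, was thus close to the value of 1 well.

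Carriers and exchangers had a median of 0.11 over 15 genes, with 6 higher and 3 lower. The ADP/ATP carriers Slc25a5 (886 and 880 CPM, -0.01) and Slc25a4 (565 and 480 CPM, -0.23) were close to equal, Etfa, of electron transfer from fatty acid oxidation, had 14.1 and 94 CPM (2.74, with 78% of the WT counts in 1 well), and Coq6, of ubiquinone synthesis, 62.1 and 0.959 CPM (-6.02, with 95.6% of the WT counts in 1 well). The list of the TCA cycle, which supplies NADH and succinate, had a median of -0.85 over 17 genes, with 4 higher and 8 lower. Its medians were -0.75 in YFP1 and -1.28 in YFP2. The list also holds pyruvate enzymes outside the cycle itself, Pcx and, among the 8 lower genes, Pdha1 (-1.02), Pdhb (-1.45) and Dlat (-2.15). Ogdh, of the oxoglutarate dehydrogenase complex, had 624 and 130 CPM (-2.27, with -1.94 in YFP1 and -2.59 in YFP2), with a count in 50 of 51 and 70 of 96 wells and well medians of 80.6 and 2.36 CPM. Sucla2, a subunit of succinyl-CoA synthetase, had a ratio of -1.66, with well medians of 11.9 and 0.844 CPM, and Dlst, of the same complex as Ogdh, 5.92 and 89.8 CPM (3.92).

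Glycolysis had a median of -0.17 over 15 genes, with 5 higher and 1 lower. Aldoa (1083 and 789 CPM, -0.46) and Gpi1 (905 and 720 CPM, -0.33) had the highest mean CPM, Pfkl, of the liver form of phosphofructokinase, had 1.03 and 109 CPM (6.73, with 56.7% of the Reninnull counts in 1 well), and Hk2, a hexokinase, had 243 and 31.9 CPM (-2.93, with 99.2% of the WT counts in 1 well). Genes of mitophagy and mitochondrial dynamics had a median of -0.10 over 15 genes, with 3 higher and 3 lower. Fis1 had 205 and 257 CPM (0.33), Bnip3l, a mitophagy receptor, 76.3 and 330 CPM (2.11, with 58.9% of the WT and 45.7% of the Reninnull counts in 1 well each, and well medians of 48.7 and 4.13 CPM), Fundc1 0.196 and 44.3 CPM (7.82, with -2.38 in YFP1 and 8.67 in YFP2) and Chchd10 51.7 and 12.5 CPM (-2.05). Cytosolic ribosomal proteins had a median of 0.33 over 84 of 100 genes, with 18 higher and 3 lower. Rpl3 had 1449 and 886 CPM (-0.71) and Rpl41 1005 and 1267 CPM (0.33), and the ends of that list were Rps6ka5 (2.74) and Rps6ka2 (-4.12), kinases that share only the prefix.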

How the data were processed

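Single cells were read as full-length SMART-Seq v4 libraries without molecular identifiers. Per the submitters' processing notes and the paper's methods, the authors checked reads with FastQC 0.11.5, trimmed them with Trimmomatic 0.39 and quantified them with Salmon 0.11.2 on GRCm38, and summed transcripts to genes with tximport (lengthScaledTPM). The deposited values are expected counts (estimated counts) per gene and well, with transcripts of near-identical sequence divided by the estimate, and not normalized for depth. Here they were rounded to whole numbers and scaled to 1000000 non-mt- counts per genotype (CPM).

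Genes with a mean of at least 10 CPM over the genotypes entered ratios, zeros took a floor of 3 counts per genotype, and no ratio was taken where both held 3 counts or fewer. A gene was called at 2-fold. Intervals at 95% are exact. Those of ratios are conditional and cover counting error only, and those of shares of wells are Clopper-Pearson and do not cover the spread between animals. Each genotype was treated as 1 sample, since the labels assign no well to a mouse or capture, so no test between genotypes was run. The ratio's calculation was checked on simulated counts. The named genes are all mt- genes, the isoform pairs, and in each complex and list the 2 with the highest mean CPM and those with the largest and smallest ratio (mean of at least 10 CPM, a count in at least 20% of the higher genotype's wells). Some genes that this rule names are not reported here. Other genes at least 2-fold apart, and partner subunits, were named after their values were seen. Members and lists were chosen with earlier results of these data known. The lists hold 50 assembly factors, 32 genes of mitochondrial DNA expression, 11 biogenesis regulators, 24 carriers, 18 TCA cycle, 17 glycolysis and 15 mitophagy genes, ribosomal proteins by prefix, and cell type markers. The loop and distal tubule list summed to 0.653 CPM in WT and 130 CPM in Reninnull cells, and the collecting duct list to 54.5 and 111 CPM (8.84 in YFP1 and 194 in YFP2). Lengths (median over protein-coding transcripts, for 95 of the 101 genes), coordinates and sequences are from GENCODE M21 on GRCm38. No doublet caller was run. TMM factors came from edgeR 4.0.16 in R 4.3.3, and all else was done in Python 3.11.15, with scipy 1.17.1, pandas 2.3.3, numpy 2.4.6 and, for plots, matplotlib 3.10.9.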

Additional observations from a re-analysis of the deposited data

Results flagged for a closer look

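Counts outside the 101 genes were found in nuclear copies of mt- genes, above the limit that a count of 0 allows. Over both genotypes, Gm29216 held 6799741 counts, Gm10925 6058331, Gm28437 2388164, Gm28438 368105 and Gm28661 232258. In WT and Reninnull cells, Gm29216 stood at 20572 and 9999 CPM (log2 ratio -1.04), Gm10925 at 17564 and 9248 CPM (-0.93), Gm28437 at 8497 and 2947 CPM (-1.53), Gm28438 at 970 and 605 CPM (-0.68) and Gm28661 at 531 and 418 CPM (-0.35). These copies are counted as non-mt- genes in the CPM. In sums, the nuclear copies together held 4.82% of non-mt- counts in WT and 2.33% in Reninnull cells. In single wells they weighed more, with medians of 122989 and 11435 CPM for Gm29216, 116508 and 9435 for Gm10925 and 44425 and 2149 for Gm28437. The CPM of other genes in single wells are lowered by these counts, more in WT. Nuclear levels without the copies in the total are not given.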

How the results depend on the processing

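No paired analysis was possible because the genotypes are different mice and the labels link no WT well to a Reninnull well. The log2 ratio of mt- to non-mt- counts, -1.06, was -0.95 as a mean and -3.43 as a median over wells, -0.87 with YFP1 and -1.23 with YFP2 alone, -1.08 with wells of at least 100000 non-mt- counts and 1000 genes and also with near-identical wells once, -1.12 without wells over 1% proximal tubule counts, -1.09 with the copies counted as mt-, and -0.01 in wells of 5000000 counts or more, a limit chosen after seeing the data. In the sums of those wells 6 mt- genes went from lower to above 0, mt-Co1 (0.36), mt-Nd5 (0.25), mt-Atp6 (0.17), mt-Nd1 (0.09), mt-Co2 (0.07) and mt-Nd2 (0.03), and mt-Nd6 to 0.00. By the median of those wells, only mt-Nd1 was higher in Reninnull cells. The 9 mt- genes at least 2-fold lower over all wells also depended on the scaling. In CPM of all counts, mt-Co2 (-0.96), mt-Co3 (-0.85), mt-Nd4 (-0.98) and mt-Nd6 (-0.92) were under 2-fold. As a mean over wells, mt-Atp8 (-0.99), mt-Nd4 (-0.75), mt-Nd4l (-0.76) and mt-Nd6 (-0.90) were. With TMM factors, mt-Co1 (-1.30), mt-Nd2 (-1.34) and mt-Nd3 (-1.32) joined the 9. The difference in median mt- share, -48 percentage points, was -47.4 with YFP1 alone and without proximal tubule wells, -54.5 with the well filter, -47.8 with near-identical wells once, -58.2 with the copies and -2.4 in the deep wells. The cause was not tested.

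The nuclear median of -0.01 was 0.13 in CPM of all counts, -0.19 without Ren1 in the total, 0.74 as a mean over wells, 2.91 as a median over wells (32 genes), -0.56 with TMM factors, -0.18 and 0.06 with YFP1 and YFP2 alone (79 and 80 genes), -0.08 with near-identical wells once, -0.23 without proximal tubule wells, 0.15 without each gene's highest well, 0.78 in thinned wells, -0.09 in the deep wells and 0.01 with no limit on mean CPM (81 genes). The all-gene median moved too, from 0.51 to 0.67, 0.30, 1.28, 1.63, -0.13, 0.34, 0.45, 0.52, 0.47, 1.07, 1.28, 0.49 and 1.01 in the same order, and the nuclear genes stayed below it by 0.40 to 1.01, except as a median over wells, where they were 1.28 above. Of the named nuclear genes lower over all wells, Atp5l (1.52), Atp5b (0.90), Uqcrc1 (0.58), Sdha (0.44), Cox4i2 (0.36) and Cox8a (0.27) were above 0 as a mean over wells. The 10 genes at least 2-fold higher were 36 of 79 as a mean over wells (45.6%, beside 55.1% of all genes), 28 of 32 as a median over wells (87.5%, beside 59.2%), 2 of 80 with TMM factors (2.5%, beside 31.6%) and 35 of 79 in thinned wells (44.3%, beside 54.8%). The 5 lower were 8 and 1 by well mean and median (beside 16.4% and 23.2%), 22 with TMM factors (27.5%, beside 33.2%), 11 with YFP1 alone (beside 29.1%) and 9 without proximal tubule wells (beside 24.4%). Without the 4 annotated pseudogenes, a choice made after seeing the data, the median was 0.01 and the counts were 10 and 5 of 79. At 4-fold, 2 were higher and 0 lower, beside 28.4% and 13%. TMM factors moved the split of all genes from 41.2% higher and 23.1% lower to 31.6% and 33.2%. Depth limits wells under 20000 non-mt- counts, and counts of 3 or fewer give no level.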
